A study of Homo sapiens with 12 samples.

Results

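Isolated gained H3K9ac regions were stretches of acetylated chromatin called in cells treated with nitric oxide, at places where neither untreated library had a peak and with no reproducible untreated region in the neighbourhood. Members were selected on the measured peak calls by 3 conditions. They belonged to the reproducible H3K9ac set of treated cells, they shared no base with a peak of either untreated library, and they lay more than 20 kb, edge to edge, from every region of the reproducible untreated set. On the 22 autosomes 1797 of 20509 treated regions met the rule, or 8.76% (95% Wilson interval 8.38 to 9.16). A further 49 of 589 treated regions on other chromosomes met it and were left out. Because absence from untreated cells and distance from untreated regions chose the members, both are description here and carry no test.

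The cells were MDA-MB-231, an established human line from a triple negative breast cancer, serum starved overnight. One arm stayed untreated and the other received 500 µM DETA/NO, a donor that releases nitric oxide slowly, for 24 h. H3K9ac and H3K9me2 were mapped by chromatin immunoprecipitation and sequencing in 2 biological replicates per arm and mark, and 4 input samples were not analysed here. The question was how nitric oxide changed where these marks lie, with untreated cells as the control. The line is a single cancer cell culture, so the replicates measure spread between cultures of that line.

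Acetylation of lysine 9 on histone H3 is added by acetyltransferases, removed by deacetylases, and is known from active promoters and enhancers, where it neutralises the charge of the histone tail. The same lysine can instead carry 2 methyl groups (H3K9me2), a mark written by the methyltransferases G9a and GLP that covers broad silent domains. One histone tail cannot carry both marks on this residue, so the position of new acetylation relative to methylated domains is of interest. Genes and sequences at the members were not assigned here, since they need the hg19 genome and its annotation.

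The 4 H3K9ac lists differed in size before any rule was applied. Untreated replicates 1 and 2 had 120630 and 59724 peaks, and treated replicates 1 and 2 had 79538 and 69151. Untreated replicate 1 stood apart by its length, and it decided much of the membership. Judged without it, 3244 regions would be members, with a median width of 719 bp and a median score of 2.34. Judged without untreated replicate 2, 2180 would be members. Read numbers are not in the lists, so the depth behind a missing peak is unknown. The narrowest peak was 238 and 175 bp in untreated replicates 1 and 2, and 99 and 114 bp in treated replicates 1 and 2. Untreated peaks of 238 and 175 bp named below thus have the narrowest width of their lists.

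Treated regions far from untreated H3K9ac were more often absent from the untreated libraries, a contrast largely set by construction. Of all treated regions 15.2% (3124) met no untreated peak, and these are called gained. Among the 5307 treated regions more than 20 kb from the untreated set, 33.9% (32.6 to 35.1) were gained, against 8.73% (8.29 to 9.19; 1327 of 15202) of those within 20 kb. The members made up 57.5% of all gained regions. Both conditions belong to the rule, so these shares describe how it works on the lists. The regions within 20 kb also include those that overlap the untreated set. Treated regions meeting an untreated peak lay a median of 0 bp from that set, while gained regions lay at least 8 bp from it. Overlapping regions therefore lower the share within 20 kb, and a trend with distance among the remaining regions was not tested. A comparison class for the members was the 3510 treated regions equally far from the untreated set that did meet a peak of a single untreated library or of both. They are called far shared regions below.

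The members were distant from untreated regions by widely different lengths. The nearest untreated reproducible region lay at a median of 71545 bp, with 687 members (38.2%) over 100 kb away, 68 over 500 kb and 23 over 1 Mb. The far shared regions had a median distance of 76001 bp. Just inside the limit lay chr5:149318828-149319273 at 20017 bp, chr2:197769548-197770385 at 20028 bp and chr5:17239002-17239741 at 20048 bp. Just outside lay chr1:234767859-234768209 at 19980 bp, chr3:130445617-130446751 at 19960 bp and chr5:179084700-179084877 at 19946 bp. The score of the 3 inside was 1.64 to 3.12 and of the 3 outside 1.35 to 4.97, ranges that overlap.

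Most members were short. Their median width was 591 bp, with the middle 50% between 398 and 878 bp, a minimum of 119 bp and a maximum of 3250 bp. The far shared regions were 1139.5 bp wide at the median, and gained regions within 20 kb of the untreated set 605 bp. Members thus resembled the other gained regions in width and were narrower than the far shared ones. There were 174 members (9.68%) under 250 bp, near the lower end of the sheared fragment length of 200 to 500 bp, and 16 over 2 kb. Together the members covered 1209 kb.

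Members also had low scores. The authors' score of a treated region, taken to be −log10 of the rate of irreproducible discovery since the floor of 1.30 corresponds to 0.05, had a median of 2.02 over members. The median was 1.96 for gained regions within 20 kb, 4.00 for far shared regions and 5.16 for all treated regions. When the treated set was ranked into 5 equal parts by score, 1204 members (67.0%) fell in the lowest part, 490 in the second, 85 in the third, 15 in the fourth and 3 in the highest. Scores of reproducible regions and of single library peaks are the authors' own. They rank and class regions within a list, and whether their scale is the same in different libraries is not known here.

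The treated libraries gave the members unequal scores, set side by side here as a description. The best peak inside a member scored a median of 11.7 in treated replicate 1 (middle 50%, 7.75 to 17.6) and 5.22 in replicate 2 (3.96 to 8.13), and replicate 1 was the higher in 1615 members (89.9%). Over all treated regions replicate 1 was the higher in 92.8%, so this order held across the list. Across members the logs of both scores had a Pearson r of 0.63 (n = 1797), against 0.93 over all 20509 treated regions. The r was 0.69 for gained regions within 20 kb of the untreated set and 0.80 for far shared regions. A lower r than over all treated regions was thus not particular to members. These values are a description over regions that share the same 2 libraries. A low-scoring cluster of 89 members (4.95%) had a best peak under 3 in treated replicate 1, and in 82 of them the best peak of replicate 2 was under 3 as well. Those 89 had a median width of 276 bp, against 614.5 bp for the other 1708.

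**Figure D1:**
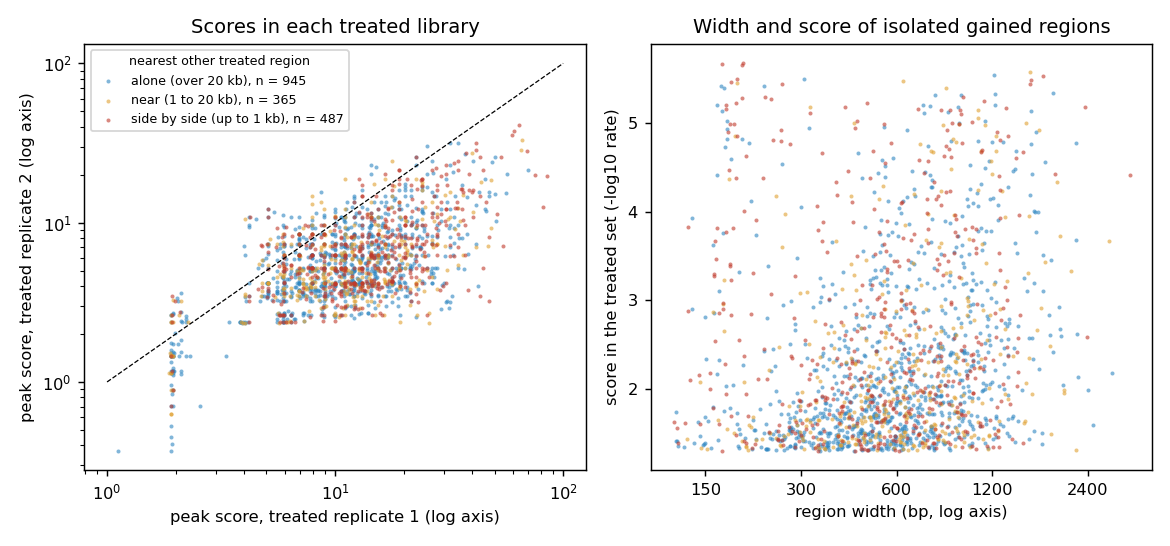
Left, best peak score of each of the 1797 isolated gained regions in treated replicate 1 and replicate 2, both on log axes, with equal scores on the dashed line and colours for the gap to the nearest other treated region. Right, region width in bp on a log axis against the region's score in the treated set. Replicate 1 was the higher in 1615 members, a cluster of 89 sits at a replicate 1 score under 3, and narrow regions occur at the top of the score range as well as at the bottom.

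Width and score did not rise together throughout. The 882 members with a score under 2 had a median width of 521 bp, and the 146 with a score of 4 to 5 had 768.5 bp. Among the 58 members with a score of 5 or more, 18 (31.0%) were under 250 bp, against 78 (8.84%) of those under 2. Chromosome 1 carried 6 of these 18 narrow, high-scoring members, chromosome 7 carried 3, and chromosomes 5 and 9 carried 2 apiece. Of all members, chromosomes 1, 7, 5 and 9 carried 9.79%, 6.29%, 6.73% and 4.95%. The counts are small and were not tested. Gained regions within 20 kb of the untreated set shared the trait of narrow width at a high score, with 7 of 41 (17.1%) under 250 bp at a score of 5 or more. Among all treated regions that met an untreated peak and scored 5 or more, 0.315% were.

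The highest-scoring members show both kinds. The highest score, 5.67, belonged to chr7:72424478-72424674, a region of 197 bp with a peak score of 59.5 in treated replicate 1 and 35.4 in replicate 2. A peak of untreated replicate 1 began 258 bp away from it, and a treated region that met an untreated peak lay 394 bp away. The next, chr1:148928557-148928725, was 169 bp wide with library scores of 60.7 and 37.7, and untreated replicate 1 had a peak 265 bp away. The third, chr1:155580350-155580545, was 196 bp wide, scored 64.1 and 41.0 in the treated libraries, and had an untreated replicate 1 peak at 528 bp. These 3 were short intervals within 1 kb of a peak of untreated replicate 1.

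The other 7 were 189 to 1733 bp wide and further from untreated peaks. The fourth, chr6:37104798-37106370, was 1573 bp wide with library scores of 48.0 and 18.6, and the nearest untreated peak was 2402 bp away. The fifth, chr6:1953276-1954491, was 1216 bp wide with scores of 56.6 and 20.3, and no untreated peak of either library lay within 26018 bp. Its nearest treated neighbour was 250322 bp away, the largest such gap among the 10. The remaining 5 were chr1:144892031-144893763 (1733 bp), chr9:28884-29072 (189 bp), chr16:57662510-57662815 (306 bp), chr6:14742801-14744386 (1586 bp) and chr3:197391441-197392068 (628 bp). Their best peak scored 50.4 to 75.0 in treated replicate 1 and 19.9 to 28.7 in replicate 2.

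The widest members were mostly of modest score. The widest, chr6:14731909-14735158 at 3250 bp, scored 4.41 and held 1 peak of treated replicate 1 and 3 of replicate 2. It was followed by chr12:24714201-24717070 (2870 bp, score 2.18), chr18:74765710-74768505 (2796 bp, 3.67), chr1:98552570-98555057 (2488 bp, 1.59) and chr18:77102658-77105057 (2400 bp, 1.98). The chromosome 12 member had no other treated region within 381969 bp and no untreated peak within 40258 bp. In each of these 5, treated replicate 1 had called a single peak and replicate 2 had called 2 or 3 within the same stretch.

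Distance to other treated regions split the members into 3 kinds. No other treated region lay within 20 kb of 945 members (52.6%, 50.3 to 54.9), 365 (20.3%) had one between 1 and 20 kb, and 487 (27.1%, 25.1 to 29.2) had one within 1 kb. The median gap was 22066 bp, and 367 members (20.4%) had a gap of at most 300 bp, about the length of a sheared fragment. Far shared regions stood alone in 59.3% (57.7 to 61.0) and side by side in 21.3% (20.0 to 22.7). Gained regions within 20 kb of the untreated set stood alone in 1.36%, a share tied to the distance that defines them. Isolation from untreated H3K9ac was therefore not isolation from treated H3K9ac, and 852 members had a treated neighbour within 20 kb. With treated regions joined across 1 kb first, the rule gave 1417 joined regions, of which 71.6% stood alone. Joining removes every gap of up to 1 kb, and no joined value was computed for far shared regions.

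**Figure D2:**
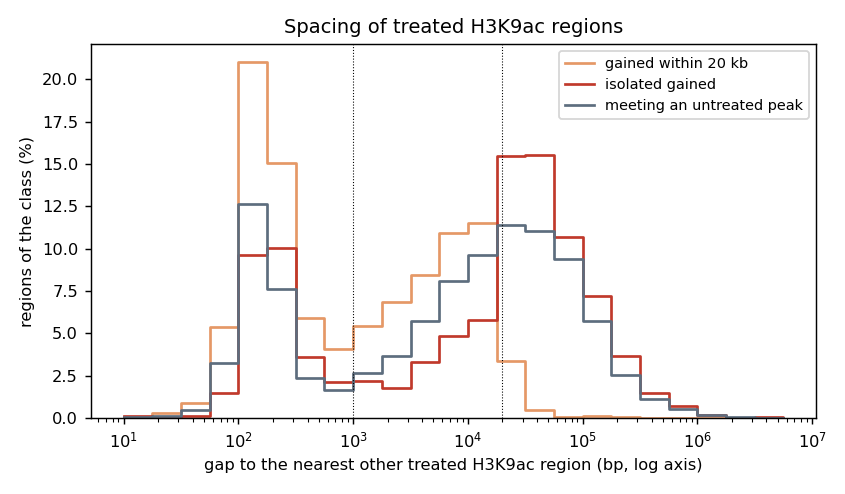
Percent of regions per bin of the gap to the nearest other treated H3K9ac region, in bp on a log axis, for isolated gained regions, gained regions within 20 kb of the untreated set and treated regions meeting an untreated peak; dotted lines mark 1 and 20 kb. Each class has a peak at gaps of about the fragment length, and the isolated gained regions have their larger peak beyond 20 kb, where 52.6% of them lie.

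Members standing side by side with another region were of 2 makes. For 244 of the 487 the nearest neighbour was another member, for 241 it was a far shared region, and for 2 it was a region within 20 kb of the untreated set. The 241 had a median width of 588 bp and a median score of 2.32. The 243 far shared regions next to members were wider and stronger, with a median width of 882 bp and a median score of 3.98. Of these 243, untreated replicate 1 had a peak in 207 and replicate 2 in 124, and both had one in 88. This set of members therefore bordered acetylated regions already called in at least 1 untreated library, mostly replicate 1.

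Counted as loci, the members were fewer. Joining treated regions across gaps of up to 1 kb placed the 1797 members in 1656 loci. Of these, 1417 held members only and 239 also held other treated regions, with 263 members in them. The mixed loci had a median width of 1927 bp, against 630 bp for the loci of members only, and 1310 of the latter were a single region. Side by side members scored a median of 2.29 and lone members 1.95, and the share side by side rose over the score classes from 22.1% under 2 to 51.7% at 5 or more.

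Clusters of members were small. Linked at up to 50 kb, the members formed 1442 groups, of which 1165 were single regions, 216 were pairs, 61 had 3 or more members and 13 had 4 or more. The largest had 6. In all, 632 members (35.2%, 33.0 to 37.4) had another member within 50 kb. Of the gained regions within 20 kb of the untreated set, 36.2% had another of their own class so close. Regions split by gaps of up to 1 kb count here as separate members. With treated regions joined across 1 kb first, the share was 19.5% of the 1417 joined regions that met the rule. The members' share rose with the linking distance, from 26.3% at 20 kb to 41.7% at 100 kb and 53.7% at 200 kb.

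The first group, chr6:14665631-14744997, had 6 members in 79.4 kb and no other treated region. Its members were 468 to 3250 bp wide and scored 1.47 to 5.49, and it held the widest member and one of the 10 highest-scoring ones. In treated replicates 1 and 2 the span held 13 and 11 peaks, the best scoring 69.2 and 28.0. In untreated replicate 1 it held 1 peak, of 238 bp and score 1.74, and in untreated replicate 2 none. The nearest untreated reproducible region was 454 kb away and the nearest H3K9me2 island 946 to 1064 kb away in the 4 libraries. A pair of its members stood 187 bp apart and another pair 110 bp apart, so at 1 kb the group was 4 loci.

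**Figure D3:**
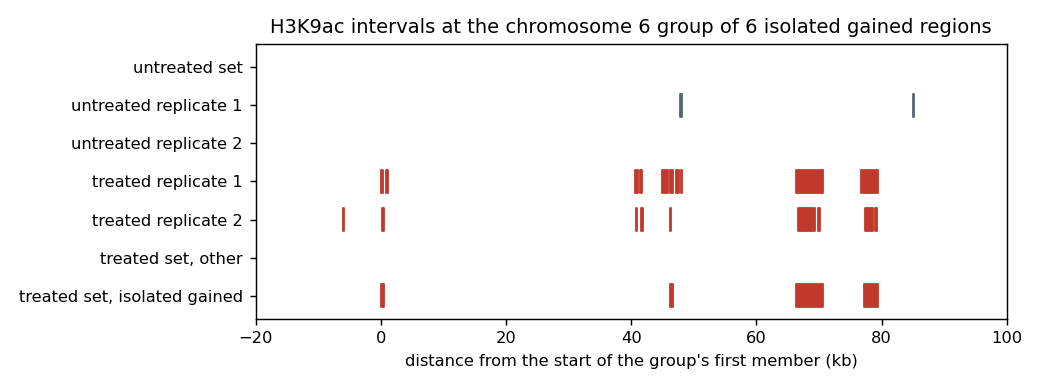
H3K9ac intervals across the largest group of isolated gained regions, in kb from the start of its first member, with 1 row per list: the reproducible untreated set, each untreated library, each treated library, and the treated set. Each bar is a called interval drawn to scale, and single narrow bars are widened by the line. On the right, treated replicate 1 shows wide intervals where treated replicate 2 shows shorter, separate peaks within the same stretches. The untreated rows hold only 2 short peaks of replicate 1 in the window, 1 of them inside the group.

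The second group, chr12:66024586-66065706, had 6 members in 41.1 kb together with 3 other treated regions. Its members were alike in width, 802 to 1082 bp, and scored 1.51 to 4.24. The treated libraries had 18 and 16 peaks in it with best scores of 41.6 and 19.1, untreated replicate 1 had 3 peaks with a best score of 1.89, and untreated replicate 2 had none. The third group, chr18:74765710-74799994, was the one covering the most bases among the groups of 4. It had 4 wide members of 879 to 2796 bp in 34.3 kb and no other treated region. Treated replicates 1 and 2 had 14 and 12 peaks there, untreated replicate 1 none and untreated replicate 2 a single peak of 175 bp with a score of 2.27. In each of these 3 groups, named by size and bases covered, each treated library had more peaks than either untreated library. Each member holds a peak of both treated libraries and none of either untreated library. The choice of groups by number of members therefore largely sets this order, and it is description only.

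Untreated peaks lay near many members although none lay inside. The nearest peak of either untreated library was a median of 4763 bp away, and 472 members (26.3%, 24.3 to 28.3) had one within 1 kb. Of these, 300 had it in untreated replicate 1 only, 81 in replicate 2 only and 91 in both. These untreated peaks scored a median of 1.89 in replicate 1 and 1.64 in replicate 2, the 56.9th and 51.2nd percentiles of their own lists, near the middle of all peaks called there. Only 297 members (16.5%) lay more than 20 kb from every peak of both untreated libraries.

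Peaks around the members were more frequent in each treated library than in each untreated one. Besides the peaks inside it, a member had a mean of 2.07 and 0.668 peaks within 20 kb in untreated replicates 1 and 2, and 3.72 and 2.35 in treated replicates 1 and 2. The arms did not overlap, but untreated replicate 1 was nearer to treated replicate 2 than to untreated replicate 2. The ratio of the treated to the untreated mean was 2.22 ± 1.75 (SD by error propagation, n = 2 per arm), a spread nearly as large as the ratio. With each list cut to its 59724 highest-scoring peaks the means were 0.957, 0.668, 3.04 and 2.09. The lists that chose the members gave these counts, so they describe the neighbourhood and are not tested.

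**Figure D4:**
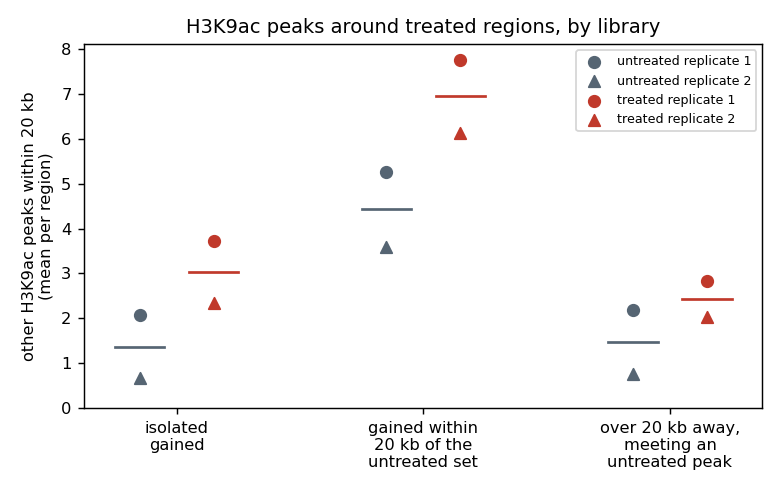
Mean number of other H3K9ac peaks within 20 kb of a region, for isolated gained regions, gained regions within 20 kb of the untreated set and far shared regions; points are the libraries and bars the means of 2 libraries. Around isolated gained regions the treated libraries (3.72 and 2.35) lie above the untreated ones (2.07 and 0.668), and gained regions near the untreated set have more peaks around them in each library.

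The neighbourhood of members resembled that of far shared regions in untreated cells. Far shared regions had 2.18 and 0.756 other peaks within 20 kb in untreated replicates 1 and 2, and 2.83 and 2.03 in treated replicates 1 and 2. Gained regions within 20 kb of the untreated set had 5.27 and 3.59 untreated and 7.76 and 6.14 treated peaks around them. In treated cells members had more peaks around them than far shared regions, in both libraries. In untreated cells they had slightly fewer, in both libraries. Untreated peaks also set these classes apart, so both differences are description and were not tested.

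A small number of members were remote from every other call. There were 205 members (11.4%, 10.0 to 13.0) more than 20 kb from each untreated peak and from each other treated region. Their median width was 537 bp and median score 2.03, and 24 scored 4 or more. The 3 with the highest score, chosen after their values were seen, were chr6:1953276-1954491, chr1:149576661-149576828 (168 bp, library scores 40.2 and 24.3) and chr15:51177518-51178745 (1228 bp, 47.4 and 15.5).

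Members were distributed unevenly over the chromosomes. They made up 3.13% (2.37 to 4.12) of treated regions on chromosome 19 and 13.1% (9.78 to 17.4) on chromosome 18, with 12.6% (121 of 959) on chromosome 5. The share of treated regions lying more than 20 kb from the untreated set differed as well, at 10.9% on chromosome 19 and 40.7% on chromosome 18. Among those distant regions the members' share ran from 22.1% (17.0 to 28.2) on chromosome 22 to 47.6% (41.6 to 53.8) on chromosome 5. The intervals take each region as independent, although neighbours need not be. Copy number was not measured here.

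H3K9me2 was not used by the rule, so it could be tested between the arms. Islands rarely met members. An island overlapped 1 and 4 members in untreated replicates 1 and 2, and 1 and 2 in treated replicates 1 and 2. Overlap was also rare among the 17385 treated regions meeting an untreated peak. Of those, 51 and 20 overlapped an island in untreated replicates 1 and 2, and 35 and 18 in treated replicates 1 and 2. In all 5 members overlapped one in any library, and 0 in both treated libraries. Of the 5 members nearest an island of a treated library, 3 overlapped one: chr1:143467069-143467313, inside islands of untreated replicate 2 and treated replicate 2, chr6:28554632-28555018, inside islands of untreated replicate 2 and treated replicate 1, and chr2:133058207-133058802, inside islands of untreated replicate 1 and treated replicate 2. The next were chr6:32764502-32764907, 1 bp from an island of treated replicate 1, and chr1:148928557-148928725, the second highest scorer, 56 bp from one.

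Islands near members did not differ between the arms beyond the spread of the libraries. An island lay within 100 kb of 8.46% and 10.5% of members in untreated replicates 1 and 2, and of 13.4% and 7.12% in treated replicates 1 and 2, so the treated pair enclosed the untreated pair. The means were 9.49% ± 1.46 untreated and 10.2% ± 4.41 treated (SD, n = 2), a difference of 0.751 points. The exact permutation test over libraries, two-sided, gave p = 1, where 0.333 is the lowest value attainable in this design. The share of the window of 100 kb on either side that islands covered was 1.10% and 1.21% untreated and 1.72% and 1.05% treated. Its means were 1.16% ± 0.080 and 1.39% ± 0.475, a difference of 0.232 points (exact permutation p of 1). Without H3K9me2 treated replicate 1 these differences turned to -2.37 and -0.104 points.

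Islands present in a whole arm and absent from the other were rare near members. An island lay within 100 kb in both treated and neither untreated library for 17 members (0.946%), against 0.761% of all treated regions. The reverse held for 12 members (0.668%), against 0.473% of all treated regions. Both shares were near the background. In 57 members (3.17%) all 4 libraries had an island within 100 kb, against 3.004% of all treated regions. In 78 members (4.34%) only treated replicate 1 had one, against 3.97% of all treated regions. In 1438 members (80.0%) none had, against 82.8% of all treated regions. These shares were also near the background, and the differences were not tested. Chromosome 13, which carries 38 members, had no island in any library.

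The difference between the arms was then set against that around gained regions close to untreated H3K9ac. The treated minus untreated difference in covered share was 0.102 points larger around members than around gained regions within 20 kb of the untreated set (exact permutation p of 1), and it turned to -0.059 without H3K9me2 treated replicate 1. In the percent of regions with an island within 100 kb the difference was 0.111 points larger (exact permutation p of 1). In a design of this size such a p does not show that the differences were equal.

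In each of the 4 libraries a larger share of members than of gained regions near the untreated set had an island within 100 kb. The latter had 4.37%, 6.86%, 7.39% and 5.12% in untreated replicates 1 and 2 and treated replicates 1 and 2. In the same order, the 17385 treated regions meeting an untreated peak had 7.49%, 8.89%, 11.9% and 7.23%. Members lay above these in the untreated replicates and treated replicate 1, but below, at 7.12%, in treated replicate 2. The gap between members and gained regions near the untreated set was 3.93 points ± 1.63 (SD, n = 4 libraries), from 2.00 to 5.97. Members were higher in 4 of 4 libraries (exact two-sided sign-flip permutation p of 0.125, the smallest that 4 libraries allow). This sign-flip p was 0.167 after Benjamini-Hochberg adjustment over 4 such tests. Against far shared regions the gap was 0.946 points ± 1.04, higher in 3 of 4 libraries (exact sign-flip p of 0.25, adjusted 0.25). The covered share of the window was 0.549 points ± 0.152 higher around members than around gained regions near the untreated set, in 4 of 4 libraries (exact sign-flip p of 0.125, adjusted 0.167). Against far shared regions it went the other way, by -0.274 points ± 0.075 and lower in 4 of 4 libraries (exact sign-flip p of 0.125, adjusted 0.167). None of the 4 tests could pass a threshold of 0.05, because 0.125 is the smallest p that 4 libraries allow. The choice of these 4 tests was made with the values in view. Distance from untreated H3K9ac, which the rule uses, separates members from gained regions near the untreated set. The tests between those classes cannot tell that distance apart from membership.

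**Figure D5:**
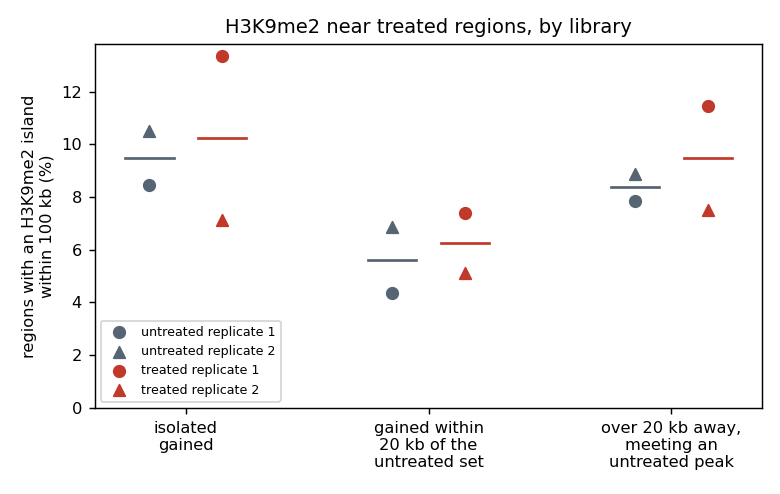
Percent of regions with an H3K9me2 island within 100 kb, for isolated gained regions, gained regions within 20 kb of the untreated set and far shared regions; points are the libraries and bars the means of 2 libraries. For isolated gained regions the treated libraries (13.4% and 7.12%) enclose the untreated ones (8.46% and 10.5%), and gained regions near the untreated set lie lower in each library.

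Lone members were more often near H3K9me2 than the rest. Among the 945 members with no other treated region within 20 kb, 11.7% and 13.3% had an island within 100 kb in untreated replicates 1 and 2, and 18.1% and 10.5% in treated replicates 1 and 2. The 487 members side by side with a treated region had 5.13% and 8.01% untreated and 8.01% and 3.49% treated, and the 365 in between had 4.38% and 6.58%, and 8.22% and 3.29%. Lone members were higher than either of the others in each of the 4 libraries, a difference that was not tested. Within lone members the treated pair again enclosed the untreated pair.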

How the data were processed

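H3K9ac and H3K9me2 were mapped in 8 libraries of MDA-MB-231 cells, and 4 inputs were not used. The authors deposited 10 interval lists without headers, and the tools listed in the submitters' processing notes are SICER, MACS2, Picard, BWA 0.7.5 and Trimmomatic 0.32, with hg19 as build and no roles stated. Peaks and islands of single libraries carry the authors' deposited score, whose making is not given in the sources used here. Reproducible regions, made by the authors from both libraries of an arm, carry a deposited value taken to be the −log10 of a discovery rate. The other deposited values used were interval positions. Scores were used to rank and class regions within a list and were set side by side between libraries as description only, and 0 columns of samples were left unused. Starts were counted from 1.

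SciPy 1.17.1, numpy 2.4.6 and pandas 2.3.3 under Python 3.11.15 served to compare intervals, with an overlap of at least 1 bp. The interval code was checked on simulated intervals. H3K9me2 was compared by exact permutation of 4 libraries. Wilson intervals at 95% cover counting error only. Named regions are the 10 highest-scoring and 5 widest members, the 3 largest groups linked at 50 kb (ties broken by bases covered), the 5 members nearest an island of a treated library, and 3 on each side of 20 kb. Members and lists were chosen with earlier results of these data known. Planned gene lists and markers need hg19 annotation and were not run. The alternatives are given in the closing section.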

Additional observations from a re-analysis of the deposited data

How the results depend on the processing

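The number of members fell from 1797 to 1153 over 50 kb and 687 over 100 kb from the untreated set, to 915 at a treated score of at least 2, and to 297 when the 20 kb also held for every peak of the untreated libraries. Leaving out 1 library gave 1797 to 3244, with 3244 without untreated replicate 1; leaving out a treated library cannot change the number, because each treated region meets a peak in both. Other limits gave 1325 to 2278. Treated regions joined across 1 kb first gave 1417, and untreated lists cut to equal size 2225, both chosen after seeing the data. Of these 1417 joined regions 71.6% stood alone, against 52.6% of the 1797 members. Another of their own kind lay within 50 kb of 19.5% of the joined regions, against 35.2% of members. The treated minus untreated percent of members near H3K9me2 turned from 0.751 to -0.728 over 100 kb from the untreated set and to -0.109 at a score of at least 2, and ran from -2.37 to 3.87 with 1 library left out, negative without untreated replicate 1 (-0.278) or treated replicate 1 (-2.37). The covered share ran from -0.104 to 0.568, and its excess over gained regions within 20 kb from -0.059 to 0.263, both negative without treated replicate 1 alone; the excess was also -0.00588 in windows of 50 kb. With a replicate block these 3 differences stayed at 0.751, 0.232 and 0.102 points, each with a paired exact permutation p of 1. The ratio of surrounding peaks ran from 1.59 within 50 kb to 3.44 within 5 kb. Exact p-values over the alternatives were 0.667 to 1. Depth is unknown, so an absent peak may be an uncalled one.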

Other observations

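The mirror rule, applied to untreated regions that met no treated peak and lay more than 20 kb from the treated set, gave 444 of 14043 autosomal untreated regions, or 3.16% (2.88 to 3.46), against 8.76% of treated regions for the isolated gained ones. Isolated lost regions were narrower, with a median width of 365 bp, and their score reached 2.72 at most, with a median of 1.84. No other untreated region lay within 20 kb of 428 of them (96.4%), whereas 52.6% of isolated gained regions stood alone in their own set. Of the 444 isolated lost regions, H3K9me2 islands held 71 and 53 in untreated replicates 1 and 2, and 48 and 71 in treated replicates 1 and 2. Of the 1797 isolated gained regions they held 1 and 4, and 1 and 2. The share over all untreated regions was not computed, so whether island overlap is particular to isolated lost regions is not known. The sets differ in size and in how alike their replicates were, so these counts were not tested against each other.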
